A study of Homo sapiens with 12 samples.

Results

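The 10 genes of a panel that marks monocytes and granulocytes were followed in K562 cells by RNA sequencing. They are 10 of the 19225 genes in the deposited tables, taken by symbol: CSF1R, ITGAX, ITGAM, CD14, MPO, LYZ, CD33, CEBPA, TYROBP and FCER1G. K562 is an established human chronic myeloid leukaemia line with erythroid and megakaryocyte features. The study asked what RHOB, a small GTPase, does in megakaryocyte and erythroid differentiation. It had 12 libraries in 4 groups of 3, all collected after 3 days of culture. MK_siRHOB cells received siRNA against RHOB and megakaryocyte differentiation medium (MK medium), and MK_siNC cells received a negative control siRNA and the same medium. Ctl_siRHOB and Ctl_siNC cells received the same siRNAs in growth medium. The labels give the genotype as RHOB knockdown or WT. What the MK medium contained is not stated in the labels. Nothing in the labels calls the replicates separate cultures, so a p-value here reflects only how these libraries scatter, which may be technical.

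Monocytes and granulocytes arise from myeloid progenitors, and the genes followed here mark successive stages and arms of that path. CEBPA is a transcription factor needed for granulocyte development, MPO and LYZ encode proteins of the granules, and CD33 is an early myeloid surface lectin. CSF1R is the receptor for the growth factor CSF1, ITGAX and ITGAM are alpha chains of integrins that pair with the beta2 chain, and CD14 is a co-receptor for bacterial lipopolysaccharide. TYROBP and FCER1G are small adaptors whose ITAM motifs pass the signal of many myeloid receptors to the kinase SYK. In myeloid cells the promoters of several such genes are bound by PU.1, encoded by SPI1, at sites with a GAGGAA core.

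The libraries held 34412558 to 54048161 reads assigned to genes. Across the tested genes, replicates 1 and 2 of a group correlated at 0.991 to 0.993 in log2 CPM, and replicate 3 correlated with them at 0.958 to 0.983. Replicate 3 therefore stood apart in each of the 4 groups. Counts of genes that passed between media, among the 10 genes and the lists, are given below with and without it. Fold changes of the genes named from the lists are given over all 3 replicates only. RHOB itself averaged 7.20 ± 2.09 FPKM in MK_siRHOB and 7.95 ± 5.21 FPKM in MK_siNC (SD, n = 3 each). It averaged 0.936 ± 0.638 FPKM in Ctl_siRHOB and 1.66 ± 0.954 FPKM in Ctl_siNC, and neither difference passed the test (edgeR adjusted p = 1). By replicate number, Ctl_siRHOB stood at 1.27, 1.33 and 0.200 FPKM, lower each time than Ctl_siNC at 2.49, 1.88 and 0.618. MK_siRHOB stood at 5.45, 6.65 and 9.51 FPKM, against 5.56, 4.37 and 13.9 in MK_siNC, higher in replicate 2 only. In what follows, siRHOB means the libraries labelled so. All 8 of 8 erythroid markers averaged at least 1 FPKM in each group. Of 9 megakaryocyte markers, 5 did so in each MK group and 2 in each growth group, with summed levels of 302 to 339 FPKM in MK_siRHOB, 274 to 335 in MK_siNC, 13.7 to 22.3 in Ctl_siRHOB and 13 to 28.0 in Ctl_siNC. The MK sums were mostly ITGB3, ITGA2B and TUBB1. GP9, PF4, VWF and SELP had 0 reads in both growth groups and averaged only 0.0201 to 0.283 FPKM in the MK groups. The summed level of 11 T, B and NK cell markers was 38.1 to 53.4 FPKM in MK_siRHOB, 51.3 to 62.1 in MK_siNC, 10.7 to 15.1 in Ctl_siRHOB and 10.3 to 15.4 in Ctl_siNC, mostly CD3D, and MS4A1 had 0 reads in all 12 libraries. The summed level of 6 fibroblast markers was 41.7 to 46.7 FPKM in MK_siRHOB, 39.4 to 47.4 in MK_siNC, 2.52 to 2.75 in Ctl_siRHOB and 2.68 to 3.06 in Ctl_siNC, mostly COL1A1 and COL1A2, with PDGFRA at 0 reads in both growth groups. For 4 endothelial markers the sum was 1.24 to 2.15 FPKM in MK_siRHOB, 1.32 to 3.05 in MK_siNC, 0.594 to 0.860 in Ctl_siRHOB and 0.563 to 0.901 in Ctl_siNC, with CDH5 and KDR at 0 reads in both growth groups. The part of these markers in the results below was not tested.

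Promoter sequences were available for 7 of the 10 genes with 8 start sites, from RefSeq on GRCh38.p14. The 250 bases before each start were searched on both strands for GAGGAA, the PU.1 core, which lies in 23.57% of 35116 promoters. It was found in 5 genes, CSF1R, CD33, ITGAM, TYROBP and CD14, and not in these windows of FCER1G and CEBPA. The 4 windows below bring together a gene that appeared in MK medium (CSF1R), a gene expressed in all groups (CD33) and a pair with like profiles (ITGAM and TYROBP). Each sequence reads 5′ to 3′ on the gene's strand, and the capitals mark GAGGAA or its reverse complement TTCCTC.
CSF1R, second listed start, chr5:150086555-150086804, minus strand: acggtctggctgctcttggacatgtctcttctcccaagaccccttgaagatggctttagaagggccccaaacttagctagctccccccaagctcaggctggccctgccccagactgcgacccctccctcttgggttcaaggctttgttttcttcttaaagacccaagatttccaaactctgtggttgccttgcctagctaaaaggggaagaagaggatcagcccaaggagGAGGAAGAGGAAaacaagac
CD33, chr19:51224830-51225079, plus strand: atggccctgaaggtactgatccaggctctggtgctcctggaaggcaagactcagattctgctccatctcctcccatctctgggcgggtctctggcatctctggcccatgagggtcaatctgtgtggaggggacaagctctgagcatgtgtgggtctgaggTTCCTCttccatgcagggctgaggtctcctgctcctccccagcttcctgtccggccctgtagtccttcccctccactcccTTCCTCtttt
ITGAM, chr16:31259725-31259974, plus strand: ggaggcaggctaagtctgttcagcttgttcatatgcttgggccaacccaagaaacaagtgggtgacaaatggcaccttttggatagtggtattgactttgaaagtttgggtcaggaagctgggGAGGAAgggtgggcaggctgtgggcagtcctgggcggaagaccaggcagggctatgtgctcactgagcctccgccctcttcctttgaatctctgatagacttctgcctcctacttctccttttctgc
TYROBP, chr19:35908296-35908545, minus strand: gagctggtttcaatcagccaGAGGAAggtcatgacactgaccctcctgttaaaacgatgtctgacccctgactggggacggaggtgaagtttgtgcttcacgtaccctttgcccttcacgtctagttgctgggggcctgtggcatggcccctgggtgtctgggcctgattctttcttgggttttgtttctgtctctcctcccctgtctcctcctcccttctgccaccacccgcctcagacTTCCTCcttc
CSF1R carried 2 adjacent matches close to this start and none at its other listed start. CD33 and TYROBP had 2 matches each and ITGAM and CD14 had 1 each. TGANTCA, an AP-1 motif found in 6.573% of promoters, matched once in CD14 and once at the other CSF1R start. TTGCNNAA, bound by C/EBP factors, lies in 9.05% of promoters and in none of the 8 windows. AGATAA, bound by erythroid zinc finger factors, lies in 9.167% of promoters and likewise in none of the 8. A match is a description of these letters. The deposited files were made on GRCh37.p13, so the coordinates serve only to place these sequences.

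In MK medium, CSF1R, ITGAX and MPO rose with either siRNA, against almost no reads in growth medium, and no listed gene fell. LYZ and CD33 were expressed in all 12 libraries. CEBPA, ITGAM, TYROBP, CD14 and FCER1G stayed below 1 FPKM on average in all 4 groups. By edgeR's quasi-likelihood test, 3 of the 9 genes tested rose and 0 fell with siRHOB, where 31% of 14026 tested genes rose and 29.1% fell. With siNC, 3 of 9 rose and 0 fell, against 30.5% and 28.4% of all tested genes. In either direction, 60.1% of all tested genes passed with siRHOB and 58.9% with siNC. The share that rose is close to that of all genes, and nothing particular to these genes follows from the count. CSF1R and MPO passed the filter on low counts in MK libraries only, and 2 growth libraries reached its bound for ITGAX, so a gene that passed this way had to differ. All 3 MK libraries lay above all 3 growth libraries for CSF1R, ITGAX, MPO and CEBPA with siRHOB, 4 of 10 genes, where 35.6% of all tested genes did so and 67.7% did not overlap in either direction. With siNC this held for CSF1R, ITGAX and MPO, 3 of 10 genes, beside 34.3% and 65.8% of all tested genes. FCER1G did not pass the filter and is not among the 9. Without the filter edgeR gave it a log2 fold change of 0.82 ± 1.51 with siRHOB (adjusted p = 0.691) and 1.35 ± 1.40 with siNC (adjusted p = 0.448). The median log2 fold change over the 9 tested genes was 0.27 with siRHOB and 0.60 with siNC, beside 0.05 and 0.06 over all tested genes. On the log2(FPKM + 0.1) scale limma called the same 3 genes with smaller differences. These were 2.99 and 3.18 for CSF1R, 4.75 and 4.57 for ITGAX, and 4.62 and 4.64 for MPO, with siRHOB and with siNC in turn.

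A gene was taken as silent in a group when its mean lay under 0.1 FPKM, as low from 0.1 to under 1 FPKM, and as expressed from 1 FPKM. Over all 3 replicates, no gene was silent in MK_siRHOB or MK_siNC, while 4 were silent in Ctl_siRHOB and 4 in Ctl_siNC. Of all 19225 genes, 28.0% were silent in MK_siRHOB, 27.9% in MK_siNC, 34.9% in Ctl_siRHOB and 34.5% in Ctl_siNC. CSF1R, ITGAX and MPO were silent in both growth groups. FCER1G was also silent in Ctl_siRHOB, at 0.0704 ± 0.0662 FPKM, and CD14 in Ctl_siNC, at 0.0886 ± 0.116 FPKM (SD, n = 3 each). These last calls rest on 5 and 18 reads, and both genes lay within an SD of the bound. In replicates 1 and 2 alone, ITGAM averaged 0.0793 FPKM in MK_siRHOB and 0.0488 in MK_siNC, and FCER1G 0.0622 and 0.0484. CD14 averaged 0.0543 in MK_siNC there but 0.134 in MK_siRHOB. In MK medium, CD14 thus needed replicate 3 only in MK_siNC, while ITGAM and FCER1G needed replicate 3 in both groups to pass the bound. In Ctl_siNC, ITGAM and FCER1G also lay under it without replicate 3, at 0.0782 and 0.0362. FCER1G lay above it in Ctl_siRHOB, at 0.106. Of the 10 genes, 4 were expressed in MK_siRHOB, 5 in MK_siNC, 2 in Ctl_siRHOB and 2 in Ctl_siNC. CSF1R made the difference between the MK groups, at 0.794 ± 0.431 FPKM in MK_siRHOB and 1.02 ± 0.824 FPKM in MK_siNC. Among all genes, 58.1% were expressed by this rule in MK_siRHOB, 58.3% in MK_siNC, 53.8% in Ctl_siRHOB and 53.9% in Ctl_siNC.

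**Figure D1:**
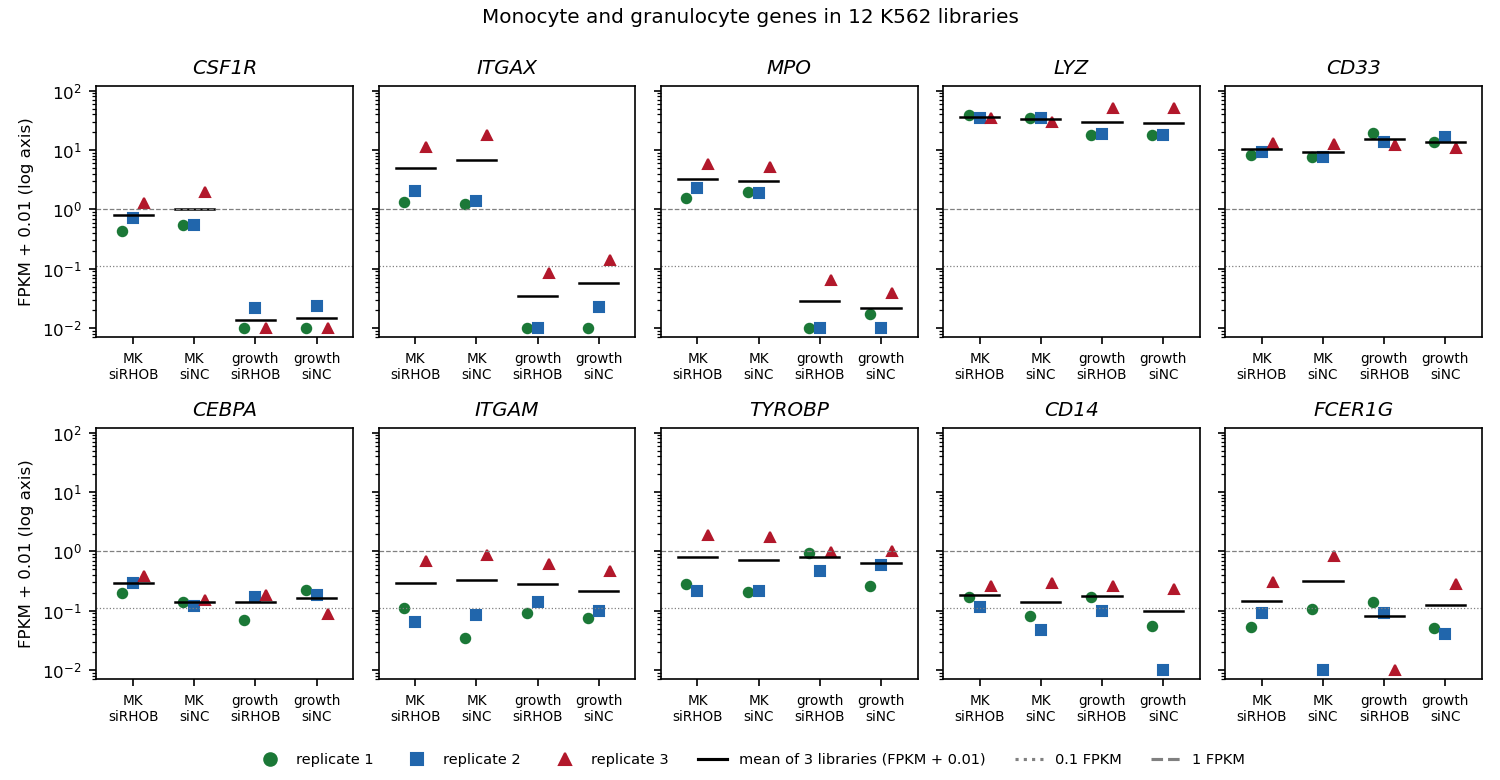
FPKM of the 10 genes in each of the 12 libraries, on a log axis after adding 0.01, with groups on the horizontal axis, replicates 1 to 3 as circles, squares and triangles, and the mean of 3 libraries as a line. CSF1R, ITGAX and MPO lie at 0.132 FPKM or less in each growth library and at 0.421 FPKM or more in each MK library, while no LYZ or CD33 library lies below 7.77 FPKM.

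CSF1R, the receptor of the macrophage growth factor CSF1, was the gene with the least signal in growth medium. It had 65, 116 and 176 reads in MK_siRHOB replicates 1, 2 and 3, against 0, 2 and 0 reads in Ctl_siRHOB. It had 75, 74 and 290 reads in MK_siNC, against 0, 3 and 0 reads in Ctl_siNC. Every MK library lay above every growth library, and replicate 3 was the highest MK library with either siRNA. In FPKM the MK_siRHOB libraries stood at 0.421, 0.696 and 1.27 and the MK_siNC libraries at 0.539, 0.540 and 1.97, while no growth library exceeded 0.0139. CSF1R rose in MK medium by 7.28 ± 1.12 on the log2 scale with siRHOB (edgeR adjusted p = 0.000212) and by 7.33 ± 1.08 with siNC (adjusted p = 0.000166). With so few growth reads, the ratio of summed reads is wide. It was 179 (95% counting interval 49.1 to 1481) with siRHOB and 182 (61.9 to 886) with siNC. In such bulk libraries, fewer cells that make a transcript and less of it in each cell cannot be told apart. The log2 fold change with siNC was 6.39 without MK_siNC replicate 3. It was 10.27 without Ctl_siNC replicate 2 and 9.95 without Ctl_siRHOB replicate 2, where 0 growth reads of that siRNA remain and the fitted value is no bound.

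ITGAX, the CD11c integrin chain of dendritic cells and macrophages, followed the same course. It had 223, 373 and 1762 reads in MK_siRHOB replicates 1, 2 and 3, against 0, 0 and 13 in Ctl_siRHOB. It had 192, 207 and 2881 reads in MK_siNC, against 0, 3 and 25 in Ctl_siNC. Every MK library again lay above every growth library, but replicate 3 gave 74.7% of the MK_siRHOB reads and 87.8% of the MK_siNC reads. Replicate 3 was also the highest growth library, so the excess of replicate 3 was present in both media. ITGAX rose by 7.56 ± 1.83 on the log2 scale with siRHOB (edgeR adjusted p = 0.00496) and by 7.12 ± 1.71 with siNC (adjusted p = 0.00492). Its mean was 4.91 ± 5.65 FPKM in MK_siRHOB and 6.74 ± 9.42 FPKM in MK_siNC, against 0.0246 ± 0.0425 FPKM in Ctl_siRHOB and 0.0481 ± 0.0728 FPKM in Ctl_siNC (SD, n = 3 each). In replicates 1 and 2 alone, ITGAX was 186-fold higher in MK_siRHOB when the Ctl_siRHOB libraries, which had 0 reads, were set to a floor of 3. No interval was computed for this floored ratio. For the 596 reads against 0 as counted, the 95% counting interval began at 151 and had no upper limit. The log2 fold change with siNC was 4.72 without MK_siNC replicate 3 and 9.67 without Ctl_siNC replicate 3. With siRHOB it was 6.0 without MK_siRHOB replicate 3, 6.97 without Ctl_siRHOB replicate 2, and 12.72 without Ctl_siRHOB replicate 3, where 0 growth reads remain.

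ITGAM, the CD11b chain that marks monocytes and neutrophils, did not follow ITGAX. It had 19, 11 and 114 reads in MK_siRHOB replicates 1, 2 and 3, against 15, 26 and 114 in Ctl_siRHOB. It had 4, 12 and 149 reads in MK_siNC, against 13, 23 and 94 in Ctl_siNC. The media overlapped, and replicate 3 was the highest library in each of the 4 groups, with 72.3% to 90.3% of the group's reads. The difference between media was 0.02 ± 1.33 on the log2 scale with siRHOB (edgeR adjusted p = 0.989) and 0.61 ± 1.34 with siNC (adjusted p = 0.713). ITGAM averaged 0.282 ± 0.352 FPKM in MK_siRHOB, 0.315 ± 0.462 in MK_siNC, 0.271 ± 0.287 in Ctl_siRHOB and 0.206 ± 0.222 in Ctl_siNC. No order of the groups can be read from these means.

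MPO, the myeloperoxidase of azurophil granules, had 191, 304 and 660 reads in MK_siRHOB replicates 1, 2 and 3, against 0, 0 and 7 in Ctl_siRHOB. It had 219, 206 and 620 reads in MK_siNC, against 1, 0 and 4 in Ctl_siNC. Groups of the 2 media did not overlap, and replicate 3 was the highest library in all 4 groups. MPO rose by 7.36 ± 1.09 on the log2 scale with siRHOB (edgeR adjusted p = 0.000202) and by 7.87 ± 1.13 with siNC (adjusted p = 0.000178). In FPKM the MK_siRHOB libraries stood at 1.53, 2.26 and 5.88 and the MK_siNC libraries at 1.95, 1.86 and 5.21, and no growth library exceeded 0.0545. The ratio of summed reads was 165 (95% counting interval 79.9 to 412) with siRHOB and 260 (111 to 802) with siNC. With siNC the log2 fold change was 7.19 without MK_siNC replicate 3, 7.24 without Ctl_siNC replicate 2 and 9.37 without Ctl_siNC replicate 3. With siRHOB it was 6.59 without MK_siRHOB replicate 3 and 11.66 without Ctl_siRHOB replicate 3, where 0 growth reads remain.

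LYZ, the lysozyme of monocyte and neutrophil granules, was the most abundant of the 10 genes in every group. Its libraries stood at 39.7, 35.2 and 34.4 FPKM in MK_siRHOB, against 17.9, 19.0 and 51.0 FPKM in Ctl_siRHOB. They stood at 35.0, 35.3 and 30.1 FPKM in MK_siNC, against 18.0, 18.0 and 50.1 FPKM in Ctl_siNC. Replicates 1 and 2 were higher in MK medium, while in replicate 3 the growth library was the higher with either siRNA. By replicate number, the difference in log2 CPM was 1.04, 0.80 and -0.57 with siRHOB and 0.85, 0.87 and -0.71 with siNC. Over all 3 replicates the difference was 0.27 ± 0.43 with siRHOB (edgeR adjusted p = 0.603) and 0.19 ± 0.43 with siNC (adjusted p = 0.726). An antisense gene overlaps LYZ, and reads of the pair cannot be told apart without the strand setting, for which no source is at hand. The same holds for CEBPA, while ITGAX and CSF1R each overlap a pseudogene, and CSF1R also a small RNA gene.

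CD33, a sialic acid binding lectin of early myeloid cells, was the second most abundant gene in every group. It stood at 8.27, 9.36 and 13.4 FPKM in MK_siRHOB, against 19.5, 13.6 and 12.1 FPKM in Ctl_siRHOB. It stood at 7.77, 7.77 and 12.4 FPKM in MK_siNC, against 13.9, 16.8 and 10.7 FPKM in Ctl_siNC. In replicates 1 and 2 the MK library was the lower with either siRNA, and in replicate 3 it was slightly the higher, so the media overlapped. The log2 fold change was -0.62 ± 0.28 with siRHOB (edgeR adjusted p = 0.0814) and -0.63 ± 0.29 with siNC (adjusted p = 0.0759). CD33 passed the test with siNC when MK_siNC replicate 3 was left out (-0.92, adjusted p = 0.0193) or Ctl_siNC replicate 3 (-0.82, 0.0354). With siRHOB it passed without MK_siRHOB replicate 3 (-0.85, 0.0355), Ctl_siRHOB replicate 3 (-0.78, 0.0456) or MK_siNC replicate 3 (-0.63, 0.0471). Over its 20 alternatives the adjusted p with siRHOB lay between 6.39e-05 and 0.294, and with siNC between 3.81e-05 and 0.245.

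CEBPA, the granulocyte transcription factor, was low throughout. It had 19, 31 and 34 reads in MK_siRHOB, 12, 10 and 14 in MK_siNC, 6, 18 and 18 in Ctl_siRHOB and 23, 25 and 9 in Ctl_siNC. After TMM scaling, the MK_siRHOB libraries lay above all MK_siNC and Ctl_siRHOB libraries, while Ctl_siNC replicates 1 and 2 lay above MK_siRHOB replicate 1. In FPKM they stood at 0.186, 0.281 and 0.370, against 0.131, 0.110 and 0.144 in MK_siNC. The difference between media was 1.03 ± 0.52 on the log2 scale with siRHOB (edgeR adjusted p = 0.111) and -0.36 ± 0.53 with siNC (adjusted p = 0.585). The first passed under 1 of 20 alternatives, limma on log2(FPKM + 1), with a difference of 0.18 and an adjusted p of 0.0451. Between media, the siRNA effects on CEBPA differed by 1.39 ± 0.75 (edgeR adjusted p = 1).

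CD14, the lipopolysaccharide co-receptor, had 10, 7 and 14 reads in MK_siRHOB, 4, 2 and 17 in MK_siNC, 10, 6 and 16 in Ctl_siRHOB and 3, 0 and 15 in Ctl_siNC. Replicate 3 held the most reads in each group, and the groups overlapped. The difference between media was -0.01 ± 1.00 on the log2 scale with siRHOB (edgeR adjusted p = 0.991) and 0.60 ± 1.06 with siNC (adjusted p = 0.649). At 18 to 32 reads a group, a difference within these errors was not detectable at this depth.

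TYROBP and FCER1G, the ITAM adaptors, were near the limit of detection. TYROBP had 6, 5 and 38 reads in MK_siRHOB, 4, 4 and 37 in MK_siNC, 21, 11 and 22 in Ctl_siRHOB and 6, 18 and 25 in Ctl_siNC. Replicate 3 held 77.6% of its reads in MK_siRHOB and 82.2% in MK_siNC, against 40.7% in Ctl_siRHOB and 51.0% in Ctl_siNC. The difference between media was -0.06 ± 0.99 on the log2 scale with siRHOB (edgeR adjusted p = 0.962) and 0.18 ± 1.00 with siNC (adjusted p = 0.884). By replicate number it was -1.63, -0.94 and 0.92 in log2 CPM with siRHOB and -0.33, -1.29 and 0.76 with siNC, so replicate 3 lay on the other side of 0. FCER1G had 1, 2 and 6 reads in MK_siRHOB, 2, 0 and 18 in MK_siNC, 3, 2 and 0 in Ctl_siRHOB and 1, 1 and 7 in Ctl_siNC. Its 43 reads over 12 libraries did not pass the filter. The two-sided exact permutation p was 0.6 for the media with siRHOB and 0.7 with siNC, where 3 against 3 libraries can give no less than 0.1.

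**Figure D2:**
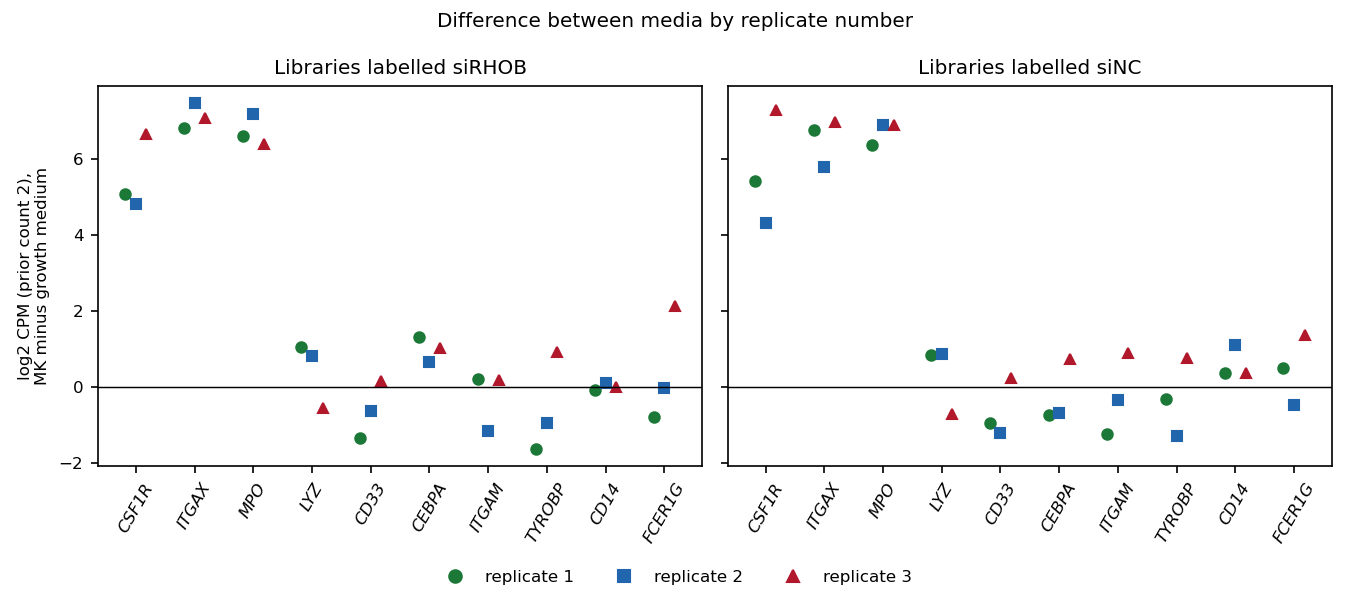
Difference in log2 CPM (prior count 2) between the MK and growth library of the same replicate number, for the 10 genes on the horizontal axis, with siRHOB on the left and siNC on the right, and 1 point per replicate number. The 3 points of CSF1R, ITGAX and MPO lie at 4.31 or higher with either siRNA, while the replicate 3 triangle of LYZ, CD33 and TYROBP lies on the other side of 0 from replicates 1 and 2.

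Without replicate 3, LYZ and CD33 joined the genes that passed. In replicates 1 and 2 alone, 5 of the 9 genes passed with siRHOB and 5 with siNC, 4 higher and 1 lower each time. Of all 13895 genes tested there, 35.9% rose and 34.7% fell with siRHOB, and 34.9% rose and 34% fell with siNC. LYZ rose by 0.91 ± 0.08 on the log2 scale with siRHOB (edgeR adjusted p = 1.83e-07) and by 0.85 ± 0.08 with siNC (adjusted p = 4.3e-07). CD33 fell by 1.02 ± 0.16 on the log2 scale with siRHOB (adjusted p = 6.39e-05) and fell by 1.10 ± 0.16 with siNC (adjusted p = 3.81e-05). CSF1R rose by 6.23 ± 0.75 and 5.86 ± 0.71, with siRHOB and siNC in turn, against 2 and 3 growth reads. With siNC, ITGAX rose by 7.28 ± 0.52 and MPO by 8.71 ± 0.55 on the log2 scale, against 3 and 1 growth reads. The ratios of summed reads were 170 (95% counting interval 57.7 to 827) for ITGAX and 542 (96.8 to 21475) for MPO. With siRHOB, ITGAX and MPO both had 0 growth reads in these replicates. MPO was 155-fold higher in MK medium against the floor of 3 reads over the group, and no interval was computed for this floored ratio. For its 495 reads against 0 as counted, the 95% counting interval began at 125 and had no upper limit. TYROBP stood at -1.63 ± 0.74 with siRHOB (adjusted p = 0.061) and -1.18 ± 0.81 with siNC (adjusted p = 0.207). With 2 libraries a group, the spread behind these tests rests on few values, and whether replicate 3 or replicates 1 and 2 are typical was not tested.

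**Figure D3:**
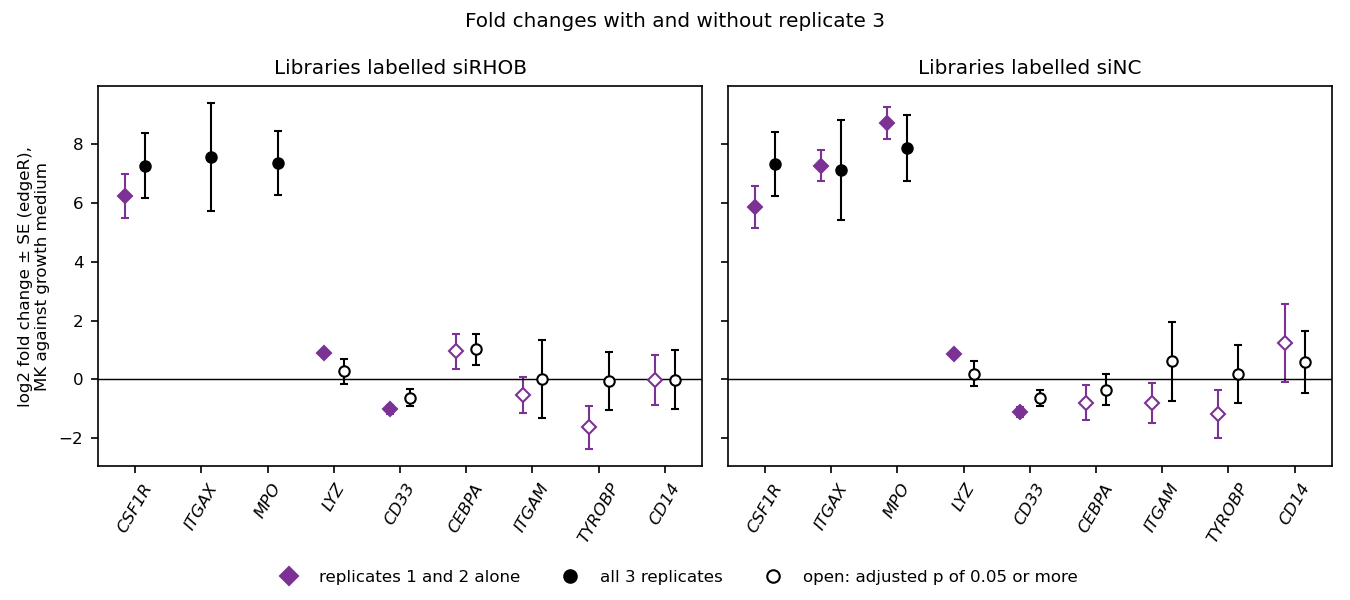
edgeR log2 fold change with its SE for MK against growth medium, from replicates 1 and 2 alone (diamonds) and from all 3 replicates (circles), with siRHOB on the left and siNC on the right, and open symbols where the adjusted p was 0.05 or more. The diamonds of LYZ and CD33 are filled and their circles open. ITGAX and MPO have no diamond with siRHOB, where replicates 1 and 2 had 0 growth reads.

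Between siRHOB and siNC, no listed gene passed the test in either medium. In MK medium 0 of 9 genes passed, where 0% of 14026 tested genes did, and 50 genes had an unadjusted p under 0.05. In growth medium 0 of 9 passed, again beside 0% of all genes, with 156 at an unadjusted p under 0.05. DESeq2 called 0 genes in MK medium, with 66 at an unadjusted p under 0.05, and 0 in growth medium, with 208. No listed gene had an unadjusted edgeR p under 0.05 in either medium. In MK medium the widest difference was that of CEBPA, 1.11 ± 0.53 on the log2 scale (adjusted p = 1). Its 3 MK_siRHOB libraries all lay above its 3 MK_siNC libraries, as 2.1% of all tested genes did, and 4.23% did not overlap in either direction. CD14 stood at 0.35 ± 1.03, CD33 at 0.14 ± 0.29, LYZ at 0.12 ± 0.43, TYROBP at 0.11 ± 1.00 and MPO at 0.09 ± 0.74. ITGAM stood at -0.18 ± 1.33, CSF1R at -0.36 ± 0.72 and ITGAX at -0.47 ± 1.21. The missed threshold does not show that the siRNAs act alike.

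In growth medium LYZ stood at 0.03 ± 0.43 on the log2 scale for siRHOB against siNC and CD33 at 0.12 ± 0.28. CD14 stood at 0.96 ± 1.04, ITGAM at 0.40 ± 1.34, TYROBP at 0.36 ± 0.99 and CEBPA at -0.28 ± 0.53 (adjusted p = 1 each). MPO had 7 reads over the Ctl_siRHOB libraries and 5 over the Ctl_siNC libraries, and ITGAX had 13 and 28. CSF1R had 2 reads in Ctl_siRHOB and 3 in Ctl_siNC, and no fold change is given. All 3 Ctl_siRHOB libraries lay above all 3 Ctl_siNC libraries for 0 of the 10 genes, beside 1.72% of all tested genes, and 0 of the 10 did not overlap in either direction, beside 3.85%. In replicates 1 and 2 alone, edgeR called 1 gene of all as lower in Ctl_siRHOB, or 0.0072%, and it was none of the 10. For FCER1G the exact permutation p for siRHOB against siNC was 0.8 in MK medium and 0.7 in growth medium (two-sided, n = 3 each). No listed gene passed the test of the difference between the siRNA effects in the 2 media, where edgeR called 0 of all genes and 106 had an unadjusted p under 0.05.

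**Figure D4:**
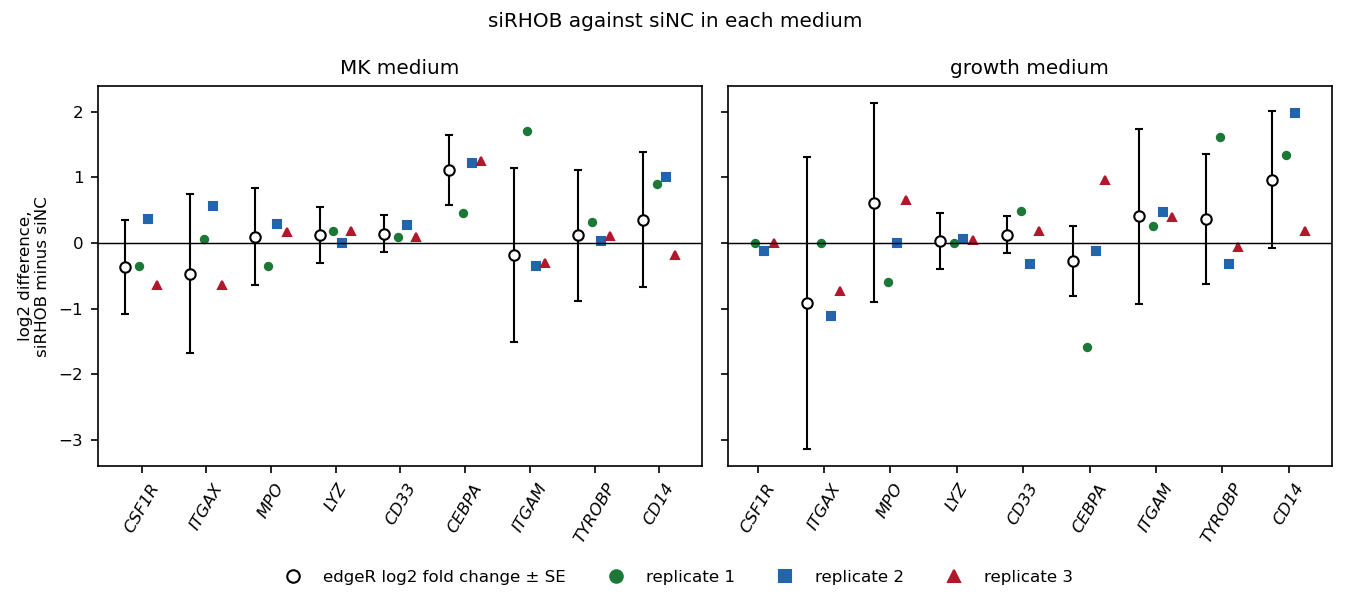
Log2 difference of siRHOB minus siNC for the 9 tested genes, in MK medium on the left and growth medium on the right, with the edgeR log2 fold change and its SE as open circles and the log2 CPM differences by replicate number as coloured symbols. CSF1R has no fold change in growth medium. CEBPA is the only gene whose 3 replicate points all reach 0.45 in MK medium, and no fold change passed the test.

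The levels of the 10 genes can be ordered in FPKM, which is per length of gene. In MK_siRHOB the order was LYZ (36.4 ± 2.84), CD33 (10.3 ± 2.68), ITGAX (4.91 ± 5.65) and MPO (3.22 ± 2.33), then CSF1R (0.794 ± 0.431) and TYROBP (0.793 ± 0.959) (SD, n = 3). ITGAM, CEBPA, CD14 and FCER1G followed, between 0.138 and 0.282 FPKM. In MK_siNC the order was LYZ (33.5 ± 2.89), CD33 (9.32 ± 2.70), ITGAX (6.74 ± 9.42), MPO (3.01 ± 1.91), CSF1R (1.02 ± 0.824) and TYROBP (0.716 ± 0.891). In both MK groups the mean ± SD ranges of LYZ and CD33 did not overlap, and from CD33 down those of each gene and the next overlapped. In Ctl_siRHOB the order began with LYZ (29.3 ± 18.8), CD33 (15.1 ± 3.94) and TYROBP (0.788 ± 0.289), and in Ctl_siNC with LYZ (28.7 ± 18.5), CD33 (13.8 ± 3.06) and TYROBP (0.617 ± 0.382). In growth medium the ranges of LYZ and CD33 overlapped, and LYZ in replicate 3 stood at 2.76 times its mean in replicates 1 and 2 in Ctl_siRHOB and 2.78 times in Ctl_siNC.

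Across the 12 libraries the 3 genes that rose had like profiles in log2 CPM. ITGAX and MPO correlated at 0.97, CSF1R and MPO at 0.96 and CSF1R and ITGAX at 0.93. ITGAM and TYROBP correlated at 0.87, and LYZ and CD33 at -0.71. These values are descriptions over 12 libraries that share the split between media and the offset of replicate 3. Among all tested genes, the nearest profiles to CSF1R were those of KSR2 (r = 0.998), FCMR and RASAL1. The nearest to ITGAX were NPL, SPTAN1 and AAK1, and to MPO they were TFPI, SLC1A2 and PPFIBP1, at 0.997 to 0.998. The nearest to LYZ were ZDHHC23 (0.960), TMOD2 and SERPINB6, and to CD33 they were EPB41L2 (0.964), RPN1 and SS18. For ITGAM they were CECR2 (0.968), MERTK and SDC1, and for TYROBP they were SHPK (0.970), HM13 and BTN2A1. For CD14 the nearest was MST1 (0.872), with SEC23IP also among the nearest, and for CEBPA it was BECN1 (0.782), followed by UPRT and GLT8D2.

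Genes that work with the listed genes were counted in 8 lists. Each count below stands against the 31% of all tested genes that rose and 29.1% that fell with siRHOB, and the 30.5% and 28.4% with siNC. In the list of other monocyte, macrophage and antigen-presenting cell genes, 16 of 35 passed the filter, and 5 rose and 2 fell with siRHOB and 9 rose and 2 fell with siNC. CD68, a lysosomal glycoprotein of macrophages, stood at 109 ± 17.3 FPKM in MK_siRHOB and 112 ± 23.4 in MK_siNC, against 35.0 ± 4.91 in Ctl_siRHOB and 33.2 ± 4.43 in Ctl_siNC (SD, n = 3 each). It rose by 1.57 ± 0.17 on the log2 scale with siRHOB (edgeR adjusted p = 1.97e-05) and by 1.70 ± 0.17 with siNC (1.38e-05). FCGR2A, an Fc receptor for IgG with near-identical copies in the genome, rose by 1.36 ± 0.26 and 1.35 ± 0.26, with siRHOB and siNC in turn. CD80, a costimulatory ligand of antigen-presenting cells, fell by 1.12 ± 0.27 and by 1.58 ± 0.28. The median log2 fold change of the list was 1.24 with siRHOB and 1.52 with siNC, beside 0.05 and 0.06 over all genes. As for the 10 genes, a listed gene that passed the filter only through MK libraries had to differ.

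In the list of neutrophil and eosinophil genes, 19 of 35 passed the filter, and 5 rose and 3 fell with siRHOB, beside 31% and 29.1% of all genes, and 7 rose and 2 fell with siNC, beside 30.5% and 28.4%. The list's median was 0.77 with siRHOB and 0.29 with siNC. FPR1, the receptor for formylated bacterial peptides, rose with siRHOB (edgeR adjusted p = 0.0022) and with siNC (0.00271), on 67 reads in MK_siRHOB and 64 in MK_siNC, against 1 in Ctl_siRHOB and 2 in Ctl_siNC. FCGR3B, a neutrophil Fc receptor nearly identical to FCGR3A, rose by 1.85 ± 0.54 and 2.14 ± 0.54. CRISP3, a protein of specific granules, fell by 2.73 ± 0.66 and by 2.55 ± 0.66, and FUT4, a fucosyltransferase that makes the CD15 antigen, fell by 0.39 ± 0.13 and by 0.46 ± 0.13. CYBA, the p22 subunit of the phagocyte oxidase, was the most abundant of the list at 163 ± 35.5 FPKM in MK_siRHOB and 172 ± 36.2 in MK_siNC, against 129 ± 9.41 in Ctl_siRHOB and 136 ± 29.1 in Ctl_siNC, and did not pass (adjusted p = 0.193 and 0.186).

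Of 18 myeloid transcription factors, 14 passed the filter, and 7 rose and 1 fell with siRHOB and 6 rose and 2 fell with siNC. Their median was 0.82 with siRHOB and 0.62 with siNC. BCL6, a transcriptional repressor, rose by 2.84 ± 0.29 with siRHOB (edgeR adjusted p = 1.14e-05) and by 2.73 ± 0.29 with siNC (1.6e-05). EGR2, an immediate early factor of macrophages, rose by 5.01 ± 0.99 and 4.81 ± 0.97, and RUNX1, a factor of many blood lineages, rose by 0.60 ± 0.15 and 0.53 ± 0.15. CEBPG, a C/EBP family member, fell by 1.12 ± 0.17 and by 1.2 ± 0.17. EGR1 was the most abundant of the list, at 394 ± 35.4 FPKM in MK_siRHOB and 402 ± 32.3 in MK_siNC, against 143 ± 122 in Ctl_siRHOB and 151 ± 131 in Ctl_siNC. It did not pass (edgeR adjusted p = 0.354 and 0.376). In growth medium its replicate 3 stood at 4.97 FPKM in Ctl_siRHOB and 5.48 in Ctl_siNC. No MK library lay below 354 FPKM and no growth library above 261. SPI1, which encodes PU.1 and was picked out after its values were seen, stood at -0.59 ± 0.27 with siRHOB (adjusted p = 0.0771) and fell by 0.70 ± 0.27 with siNC (0.0433). It averaged 10.4 ± 2.97 FPKM in MK_siRHOB and 9.04 ± 3.76 in MK_siNC, against 14.9 ± 1.55 in Ctl_siRHOB and 14.1 ± 1.70 in Ctl_siNC.

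Of 34 partners and downstream kinases of the ITAM adaptors, 25 passed the filter, and 15 rose and 6 fell with siRHOB, beside 31% and 29.1% of all genes, and 15 rose and 5 fell with siNC, beside 30.5% and 28.4%. Their median was 1.30 with siRHOB and 1.06 with siNC. GP6, the platelet collagen receptor that signals through FCER1G, rose by 1.90 ± 0.20 with siRHOB (edgeR adjusted p = 1.48e-05) and by 1.74 ± 0.20 with siNC (2.97e-05), to 28.4 ± 0.408 FPKM in MK_siRHOB and 28.5 ± 1.48 in MK_siNC, against 7.30 ± 1.62 in Ctl_siRHOB and 8.24 ± 3.19 in Ctl_siNC. FCER1G itself averaged 0.138 ± 0.133 FPKM in MK_siRHOB and 0.307 ± 0.450 in MK_siNC. LAT2, an adaptor of B and myeloid cells, rose by 2.29 ± 0.21 and 2.61 ± 0.21. SH2B3, an adaptor that restrains cytokine receptors, rose by 1.44 ± 0.16 and 1.38 ± 0.16, and the kinase BTK rose by 0.59 ± 0.13 and 0.57 ± 0.13. LYN, a SRC family kinase, fell by 1.42 ± 0.07 and by 1.46 ± 0.07.

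Of 13 partners and ligands of the beta2 integrins, 12 passed the filter, and 4 rose and 2 fell with siRHOB and 3 rose and 1 fell with siNC, with a median of 1.04 and 0.97. FERMT3 and TLN1, which activate integrins from inside the cell, rose by 1.41 ± 0.09 and 1.25 ± 0.10 with siRHOB and by 1.31 ± 0.09 and 1.15 ± 0.10 with siNC. ICAM4, an erythroid ligand of integrins, fell by 1.07 ± 0.17 and by 1.03 ± 0.17, with siRHOB and siNC in turn. ITGB2, the beta chain that ITGAX and ITGAM need at the surface, was picked out after its values were seen. It averaged 0.597 ± 0.517 FPKM in MK_siRHOB and 0.709 ± 0.532 in MK_siNC, against 0.121 ± 0.131 in Ctl_siRHOB and 0.160 ± 0.185 in Ctl_siNC, and stood at 2.25 ± 1.01 (edgeR adjusted p = 0.0745) and 2.13 ± 0.99 (0.0859). In MK libraries the mean FPKM of ITGAX was above that of the chain it pairs with.

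Of 14 genes for ligands and signalling of CSF1R, 12 passed the filter, and 6 rose and 4 fell with either siRNA, with a median of 0.88 with siRHOB and 0.81 with siNC. CBLB and CBL, ubiquitin ligases that turn off such receptors, rose by 3.18 ± 0.11 and 0.88 ± 0.11 with siRHOB and by 2.92 ± 0.11 and 0.82 ± 0.11 with siNC. PIK3CD, a PI3-kinase subunit of blood cells, fell by 0.88 ± 0.19 and by 1.12 ± 0.19. The phosphatase PTPN11 fell by 0.66 ± 0.12 and by 0.65 ± 0.12, and the adaptor GRB2 fell by 0.27 ± 0.08 and by 0.33 ± 0.08. CSF1, the ligand, was picked out after its values were seen and rose by 2.28 ± 0.48 with siRHOB (edgeR adjusted p = 0.00231) and by 2.40 ± 0.48 with siNC (0.00182). It averaged 18.2 ± 9.57 FPKM in MK_siRHOB and 21.3 ± 13.5 in MK_siNC, against 3.62 ± 1.24 in Ctl_siRHOB and 3.92 ± 1.14 in Ctl_siNC.

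Of 18 genes for CD14 and Toll-like receptor signalling, 13 passed the filter, and 4 rose and 4 fell with either siRNA, with a median of -0.07 with siRHOB and 0.03 with siNC. TLR5 and TLR6, receptors for flagellin and for bacterial lipopeptides, rose by 2.71 ± 0.26 and 2.35 ± 0.34 with siRHOB and by 2.28 ± 0.25 and 2.44 ± 0.34 with siNC. The kinase IRAK2 rose by 1.57 ± 0.24 and 1.77 ± 0.24. The adaptor MYD88 fell by 0.67 ± 0.13 with either siRNA, and the kinase IRAK1 fell by 0.37 ± 0.07 and by 0.43 ± 0.07. Of 13 other Siglec genes in the tables, 8 passed the filter, and 5 rose and 1 fell with siRHOB and 5 rose and 2 fell with siNC, with a median of 1.62 and 1.74. SIGLEC9, a Siglec of neutrophils and monocytes, rose by 6.18 ± 1.06 with siRHOB (edgeR adjusted p = 0.000533) and by 6.85 ± 1.09 with siNC (0.000351), while its relative CD33 did not pass. SIGLEC10 rose by 0.88 ± 0.21 and 1.00 ± 0.21, and MAG, a Siglec of myelin, fell by 0.85 ± 0.18 and by 0.87 ± 0.18. CD22, a Siglec of B cells, stood at -0.22 ± 0.15 with siRHOB (adjusted p = 0.239) and fell by 0.38 ± 0.15 with siNC (0.0486). Siglec genes share long stretches of sequence, and the labels do not state how the counting treated such reads.

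**Figure D5:**
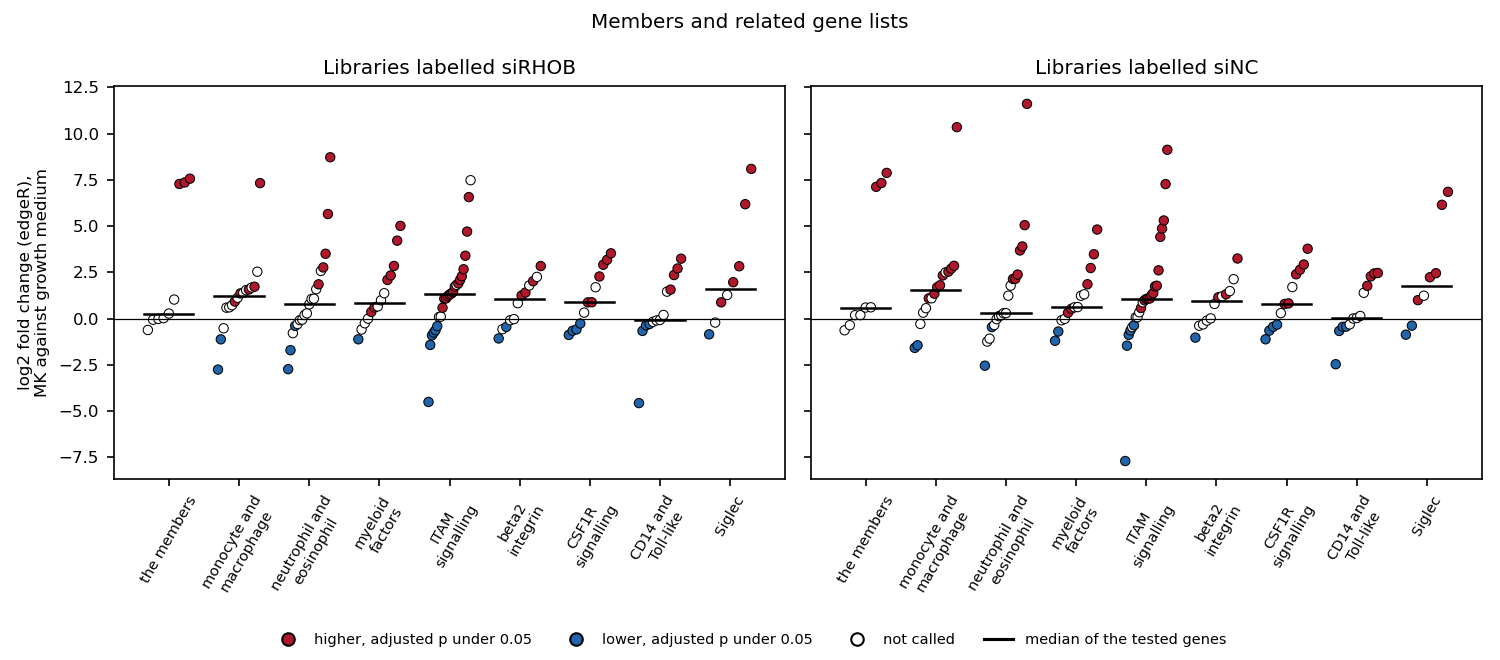
edgeR log2 fold changes for MK against growth medium, with siRHOB on the left and siNC on the right, of the 9 tested genes of the report and of the tested genes of the 8 lists, 1 point per gene, with the median as a line. Red and blue points passed the test as higher and lower and white points did not. Points of genes with 0 reads in a group are fitted values and no bound.

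The lists were also counted in replicates 1 and 2 alone, a count added after the data were seen. In that fit 35.9% of all tested genes were higher and 34.7% lower with siRHOB, and 34.9% and 34% with siNC. The monocyte and macrophage list had 6 higher and 3 lower with siRHOB and 9 and 2 with siNC. The neutrophil and eosinophil list had 6 and 3 with siRHOB and 9 and 3 with siNC, and the transcription factors had 9 and 2 with siRHOB and 8 and 3 with siNC. The ITAM list had 14 and 6 of 24 tested with siRHOB and 15 and 6 with siNC. The beta2 integrin list had 6 and 3 with siRHOB and 5 and 3 with siNC. The CSF1R list had 8 and 4 with either siRNA, the CD14 and Toll-like list had 4 and 5 of 11 tested, and the Siglec list had 6 and 1 with siRHOB and 6 and 2 with siNC. Between siRHOB and siNC, 0 genes of the 8 lists passed in MK medium and 0 in growth medium.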

How the data were processed

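RNA was sequenced from 12 K562 libraries in 4 groups of 3. The authors deposited raw read counts per gene and FPKM values per gene. Per the submitters' processing notes, the build was GRCh37.p13 and the tools included edgeR, featureCounts 2.0.2 and HISAT2 2.2.1. The settings for strand and for reads with several hits are not stated there. Dividing each count by the library total and the deposited FPKM implied a gene length, which varied by over 1% between libraries in 0 genes.

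The 10 genes and the lists were chosen with earlier results of these data known. Counts were fitted over all genes in R 4.3.3 with edgeR 4.0.16 (filterByExpr with a minimum count of 10, TMM, robust quasi-likelihood, one fit of the 4 group means). That left 14026 of 19225 genes, and an adjusted p (Benjamini-Hochberg) under 0.05 was called. Errors of log2 fold changes are standard errors, and levels are mean ± SD. Alternatives used DESeq2 1.42.0 and limma 3.58.1 on log2(FPKM + 0.1) or log2(FPKM + 1), RLE scaling, no filter, a replicate block, replicates 1 and 2 alone, and each library left out in turn. The scripts were tested on simulated data. Figures used Python 3.11.15 and matplotlib 3.10.9.

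Libraries of the same number deviated together from their group means, with a lowest correlation of 0.151, 0.190 and 0.340 for replicates 1, 2 and 3. Deviations within a group of 3 balance each other, and replicate 3 stood apart in each group. Replicates 1 and 2 could therefore correlate here without being paired, and the check cannot show that they pair. Differences by replicate number follow the numbers in the labels, which do not state a pairing. Libraries of different groups were not compared for duplication. Replicates of a group differed by a chi-square of at least 4.21 per gene, so none was a second deposit of another in its group. This does not show that they came from separate cultures. Counting intervals (95%, exact) and the floor of 3 reads cover counting error only. From each list, up to 3 called genes with the smallest adjusted p with siNC and the 2 most abundant were eligible to be named, and for each of the 10 genes that was tested, the 3 genes with the nearest profile, of which 1 is not reported here.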

Additional observations from a re-analysis of the deposited data

How the results depend on the processing

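CSF1R, ITGAX and MPO rose in MK medium with either siRNA under all 20 alternatives. With siRHOB the highest adjusted p was 0.012 for CSF1R and 0.0375 for ITGAX (limma), and 0.00129 for MPO (edgeR). With siNC it was 0.00594 and 0.0362 (limma), and 0.00167 (edgeR), in turn. CSF1R and MPO reached the bound of the count filter in MK libraries only, and ITGAX in 2 growth libraries, so such genes had to differ. The alternatives reuse the same libraries and are no separate support. In replicates 1 and 2 alone, 5 of the 10 genes were called with siRHOB and 5 with siNC, and siRHOB against siNC in growth medium called 1 gene of all. limma on log2(FPKM + 0.1) without a filter called 1 gene of all for siRHOB against siNC in MK medium. The replicate block left 3 of the 10 genes called in each arm, with 9490 genes of all called with siRHOB and 9330 with siNC, and it changed no call of the 10 genes. Leaving out a library gave 7350 to 8906 genes of all with siRHOB and 7119 to 8492 with siNC. A lower bound of 0.5 FPKM made 4, 4, 7 and 7 genes silent in MK_siRHOB, MK_siNC, Ctl_siRHOB and Ctl_siNC, where 37.8%, 37.6%, 42.9% and 42.7% of all genes lay below it. The other sign changes, listed next as log2 values, were of genes that passed the test on neither side, and the cause was not tested. The low reads of CD14, ITGAM, TYROBP and the growth libraries limit these values.

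For MK against growth medium with siRHOB, ITGAM was -0.53 in replicates 1 and 2 alone, -0.21 with the replicate block and -0.078 by limma on log2(FPKM + 0.1), with or without the filter. CD14 was 0.0175 by RLE scaling, 0.0219 by DESeq2, 0.0206 with the replicate block, 0.0384 by limma on log2(FPKM + 0.1), with or without the filter, and 0.00688 on log2(FPKM + 1). With siNC, ITGAM was -0.80 in replicates 1 and 2 alone. TYROBP with siNC was -1.18 in replicates 1 and 2 alone, -0.22 with the replicate block, -0.23 by limma on log2(FPKM + 0.1), with or without the filter, and -0.0048 on log2(FPKM + 1).

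For siRHOB against siNC in MK medium, replicates 1 and 2 alone gave 0.055 for CSF1R, 0.35 for ITGAX, 0.69 for ITGAM and -0.0039 for MPO. ITGAM was 0.14 with the replicate block and 0.0952 by limma on log2(FPKM + 0.1), with or without the filter. In growth medium, replicates 1 and 2 alone gave -2.19 for MPO.

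Leaving out 1 library at a time gave these ranges for MK against growth medium. With siRHOB, CD14 ranged from -0.38 to 0.35, ITGAM from -1.80 to 1.30 and TYROBP from -1.76 to 0.39. With siNC, CD14 ranged from -0.70 to 2.46, ITGAM from -2.10 to 1.91, LYZ from -0.051 to 0.79 and TYROBP from -1.66 to 0.66. For siRHOB against siNC in MK medium, CD14 ranged from -0.081 to 1.63, CD33 from -0.082 to 0.41, CSF1R from -0.86 to 0.56, ITGAM from -2.0 to 2.51, ITGAX from -2.03 to 1.92, MPO from -0.67 to 0.76 and TYROBP from -1.57 to 1.94. In growth medium, CD33 ranged from -0.13 to 0.31, CEBPA from -0.61 to 0.060, ITGAM from -0.89 to 1.71, ITGAX from -6.09 to 1.64, LYZ from -0.59 to 0.64 and MPO from -3.70 to 2.11.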
